A study of Mus with 3 samples.

Results

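The genes described here are those that present peptides to T cells on MHC class I and class II molecules. A list of 33 of them was set by name, 23 of the class I pathway and 10 of the class II pathway, out of 32285 genes in the count matrix. Each of the 33 had 1 row in the matrix, and 19 lie on chromosome 17 in GRCm38, the chromosome that carries the mouse MHC. The members were read in cytotoxic T cells (CTLs), CD4 T cells, macrophages, dendritic cells and MC38 or stromal cells, separately for each of the 3 genotypes.

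Class I molecules are present on nearly all nucleated cells. Peptides cut by the proteasome are carried into the endoplasmic reticulum by the TAP transporter, loaded onto a heavy chain paired with β2-microglobulin, and shown to CD8 T cells. Class II molecules are made mainly by dendritic cells, macrophages and B cells, where the invariant chain Cd74 holds the groove until it is filled with peptides from the endosome for CD4 T cells. Interferon γ from T cells is known to raise the genes of both pathways, through Irf1, Nlrc5 and Ciita among others, in tumor cells as well as in immune cells.

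Tumors of MC38, a mouse colon cancer cell line, grown until day 16 came from 3 kinds of host: WT mice, RARα-KO mice (dLck-Cre removes part of the retinoic acid receptor gene Rara from T cells), and RARα-TG mice (a CD2 promoter drives Rara). Both changes are thus made in the T cells of the host, and MC38 cells are a line injected into all 3 hosts. For each genotype 30000 CD45.2+ CD3+ T cells were sorted and mixed with 10000 unsorted tumor cells, each genotype was marked with its own hashtag antibody, and the 3 mixtures were run as 1 library. The WT controls are named by the study as C57BL/6 and dLck-Cre mice, and the sources used here do not say which of them gave this tumor or how many mice were pooled. Each genotype is therefore 1 sample, no p-value can be given, and all intervals below are exact 95% intervals that cover counting error only.

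The library held 5585 cells with a median of 4823 UMIs (molecules counted), of which 1927 carried the WT hashtag, 2103 the RARα-KO hashtag and 895 the RARα-TG hashtag. CTLs numbered 845, 1181 and 113 (WT, RARα-KO, RARα-TG) and CD4 T cells 217, 246 and 262. Macrophages numbered 77, 127 and 35, dendritic cells 48, 35 and 17, and MC38 or stromal cells 285, 133 and 24, so the RARα-TG values outside T cells rest on few cells. Rara was at 87.5 CPM (UMIs of a gene per 1000000 gene UMIs of the same cells) among WT T cells, 80.2 among those of RARα-KO and 249.6 among those of RARα-TG. The transcript is still made in the RARα-KO line, so the RARα-KO label cannot be checked from these counts.

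The cells called MC38 or stromal had collagen and mesenchymal transcripts in nearly every cell, with Sparc in 98.4% and Col3a1 in 89.8% of 442 cells. Epithelial genes were absent or close to it, with Krt18 at 0 UMIs and Krt8, Krt19 and Epcam each in under 1% of cells. Tumor cells and fibroblasts of the host were therefore not separated. Of these cells 423 were in a main cluster and 19 in a small cluster led by Cald1 and Tnnt2. Macrophages had all 13 listed macrophage markers in every genotype, led by Lyz2 and Cd14.

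In MC38 or stromal cells the class I pathway was higher in tumors of RARα-KO hosts and lower in tumors of RARα-TG hosts than in WT. The summed UMIs of the 23 genes were 12035 CPM for WT (11962 to 12108), 17413 for RARα-KO (17288 to 17539) and 7254 for RARα-TG (6991 to 7524). The log2 ratio to WT was 0.53 for RARα-KO (0.52 to 0.55) and −0.73 for RARα-TG (−0.78 to −0.68). All 23 genes had a ratio above 0 in RARα-KO, and 13 were past 1.5-fold, the size used throughout for a called difference. Over all 10489 genes with 0.1 or more UMIs per cell, 6.37% were higher by 1.5-fold and 3.58% lower. In RARα-TG 16 of 22 class I genes that passed that minimum were lower by 1.5-fold and 1 was higher, against 19.6% and 15.1% of all genes. The higher gene, H2-Q7, met the minimum only in RARα-TG, and Nlrc5, among the lower genes, only in WT. The median log2 ratio of the class I genes was 0.67 for the RARα-KO comparison and −1.0 for RARα-TG, beside 0.02 and −0.06 over all genes.

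**Figure D1:**
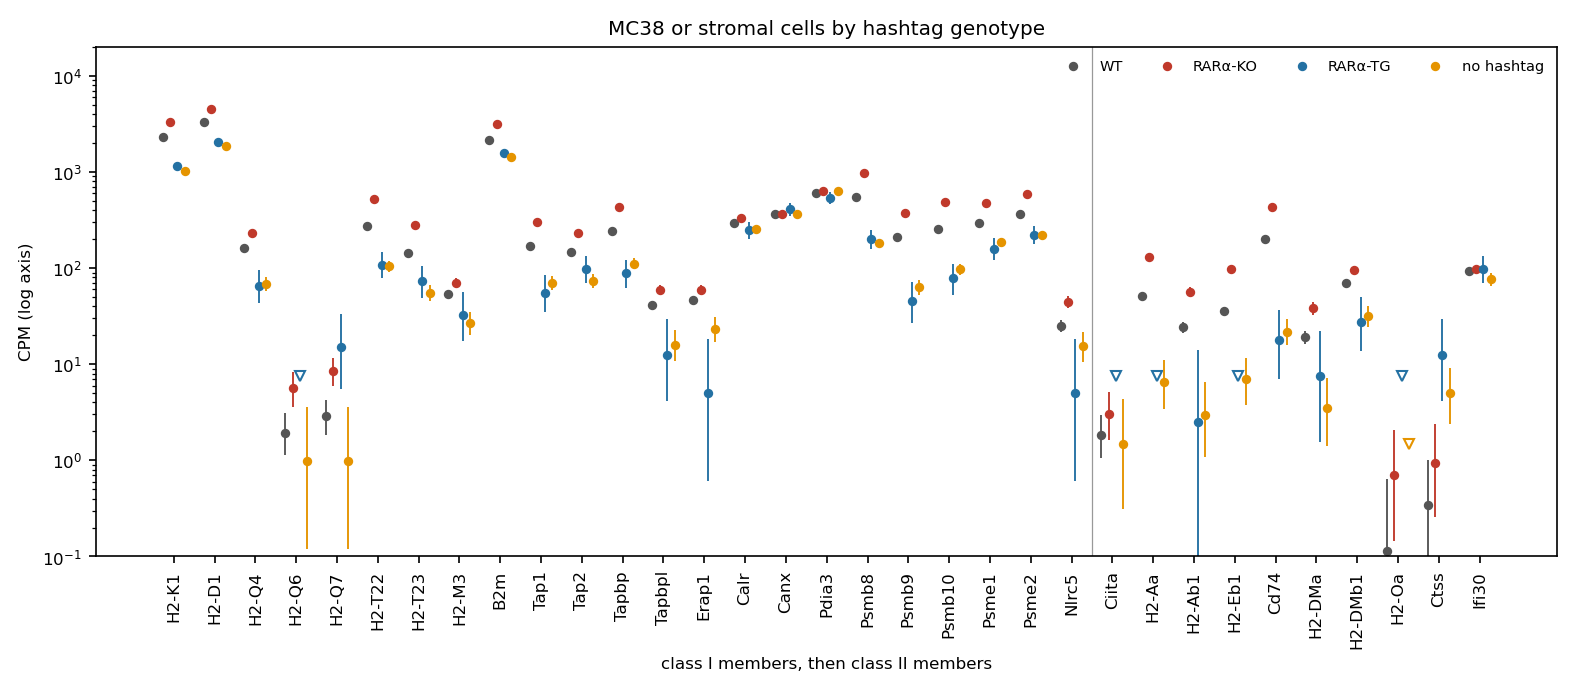
CPM (log axis) of each class I and class II gene in MC38 or stromal cells, by genotype and for cells without a hashtag call. Vertical lines are exact 95% Poisson intervals, open triangles mark the level that 0 UMIs allows (3 UMIs), and lines are cut at the lower edge. From H2-K1 to Nlrc5 the RARα-KO point lies above WT for each gene, and most RARα-TG points and those without a hashtag call lie below it.

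The classical heavy chains, which present most peptides, followed the sum. H2-K1 (ENSMUSG00000061232, GRCm38 chromosome 17, 33996012 to 34000619) was at 2331 CPM for WT, 3306 for RARα-KO and 1156 for RARα-TG. Its log2 ratio was 0.50 (0.47 to 0.54) and −1.01 (−1.15 to −0.88), and no pair of intervals overlapped. H2-D1 (ENSMUSG00000073411, chromosome 17, 35263094 to 35267497) was at 3296, 4475 and 2073, with log2 ratios of 0.44 and −0.67. The light chain B2m, shared by all class I molecules, was at 2138, 3144 and 1563, with log2 ratios of 0.56 and −0.45, so the heavy chain H2-K1 and the light chain were both ordered RARα-KO, WT, RARα-TG.

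Of the non-classical heavy chains, H2-T23 and H2-T22 were past 1.5-fold in both comparisons. H2-T23, whose product Qa-1 is read by receptors of NK cells and CD8 T cells, was at 145.2, 280.7 and 73.2 CPM (WT, RARα-KO, RARα-TG), with log2 ratios of 0.95 (0.84 to 1.07) and −0.99 (−1.57 to −0.46). H2-T22, a ligand of some γδ T cell receptors, was at 275.8, 527.8 and 108.6, with log2 ratios of 0.94 and −1.35. H2-Q4 and H2-M3 were below 1.5-fold in RARα-KO, at 0.50 and 0.40, and both were lower by 1.5-fold or more in RARα-TG. The RARα-TG difference was beyond counting error for H2-Q4 and not for H2-M3. H2-Q6 and H2-Q7 were scarce, with 17 and 25 UMIs in WT and 24 and 36 in RARα-KO. H2-Q7 was the class I gene above WT by 1.5-fold in RARα-TG, from 6 UMIs, in cells where T cell markers summed to 300.4 CPM against 24.3 in WT and 94.2 in RARα-KO, and the part of T cell RNA in this value was not tested. The heavy chain genes are near copies of one another, and reads that fit several of them may be split or dropped in counting, so values of single H2-Q and H2-T genes are uncertain.

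The genes that cut and load peptides were among those with the widest range. Tap1, a subunit of the peptide transporter, was at 171.9 CPM for WT, 304.8 for RARα-KO and 55.5 for RARα-TG, with log2 ratios of 0.83 (0.72 to 0.93) and −1.63 (−2.31 to −1.03). Psmb9, a catalytic subunit of the immunoproteasome, was at 212.5, 375.2 and 45.4, with log2 ratios of 0.82 (0.72 to 0.92) and −2.23 (−2.98 to −1.56). The other catalytic subunits Psmb8 and Psmb10 had log2 ratios of 0.84 and 0.90 in RARα-KO and −1.45 and −1.72 in RARα-TG. Tapbp, the tapasin gene that bridges TAP and the heavy chain, was at 245.8, 431.5 and 88.4, with log2 ratios of 0.81 and −1.48. Tap2 and the proteasome activator genes Psme1 and Psme2 were past 1.5-fold in RARα-KO at 0.66, 0.70 and 0.67, and in RARα-TG Tap2 was not, at −0.56.

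The general chaperones of the endoplasmic reticulum, which also serve many other proteins, did not follow. Calr, Canx and Pdia3 had log2 ratios of 0.18, 0.01 and 0.04 in RARα-KO and −0.25, 0.16 and −0.19 in RARα-TG. Of genes outside the list, Psmb5, Psmb6 and Psmb7, the constitutive counterparts of the immunoproteasome subunits, were at 0.09, −0.00 and −0.02 in RARα-KO. Nlrc5, the transactivator of class I genes, was at 25.1, 44.2 and 5.0 CPM, the last from 2 UMIs, with log2 ratios of 0.82 (0.53 to 1.10) and −2.31 (−5.37 to −0.44). Irf1, a transcription factor for class I genes, was at 383.2, 529.9 and 106.0. Of 19 other class I pathway genes in the matrix, 13 passed the minimum in the RARα-KO comparison and 2 were past 1.5-fold, H2-T24 among them, all higher. H2-T24 met the minimum only in RARα-KO. In RARα-TG 5 of 12 were lower by 1.5-fold, Irf1 among them, and 0 were higher. The shares over all genes were 6.37% higher and 3.58% lower in RARα-KO, and 15.1% higher and 19.6% lower in RARα-TG.

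**Figure D2:**
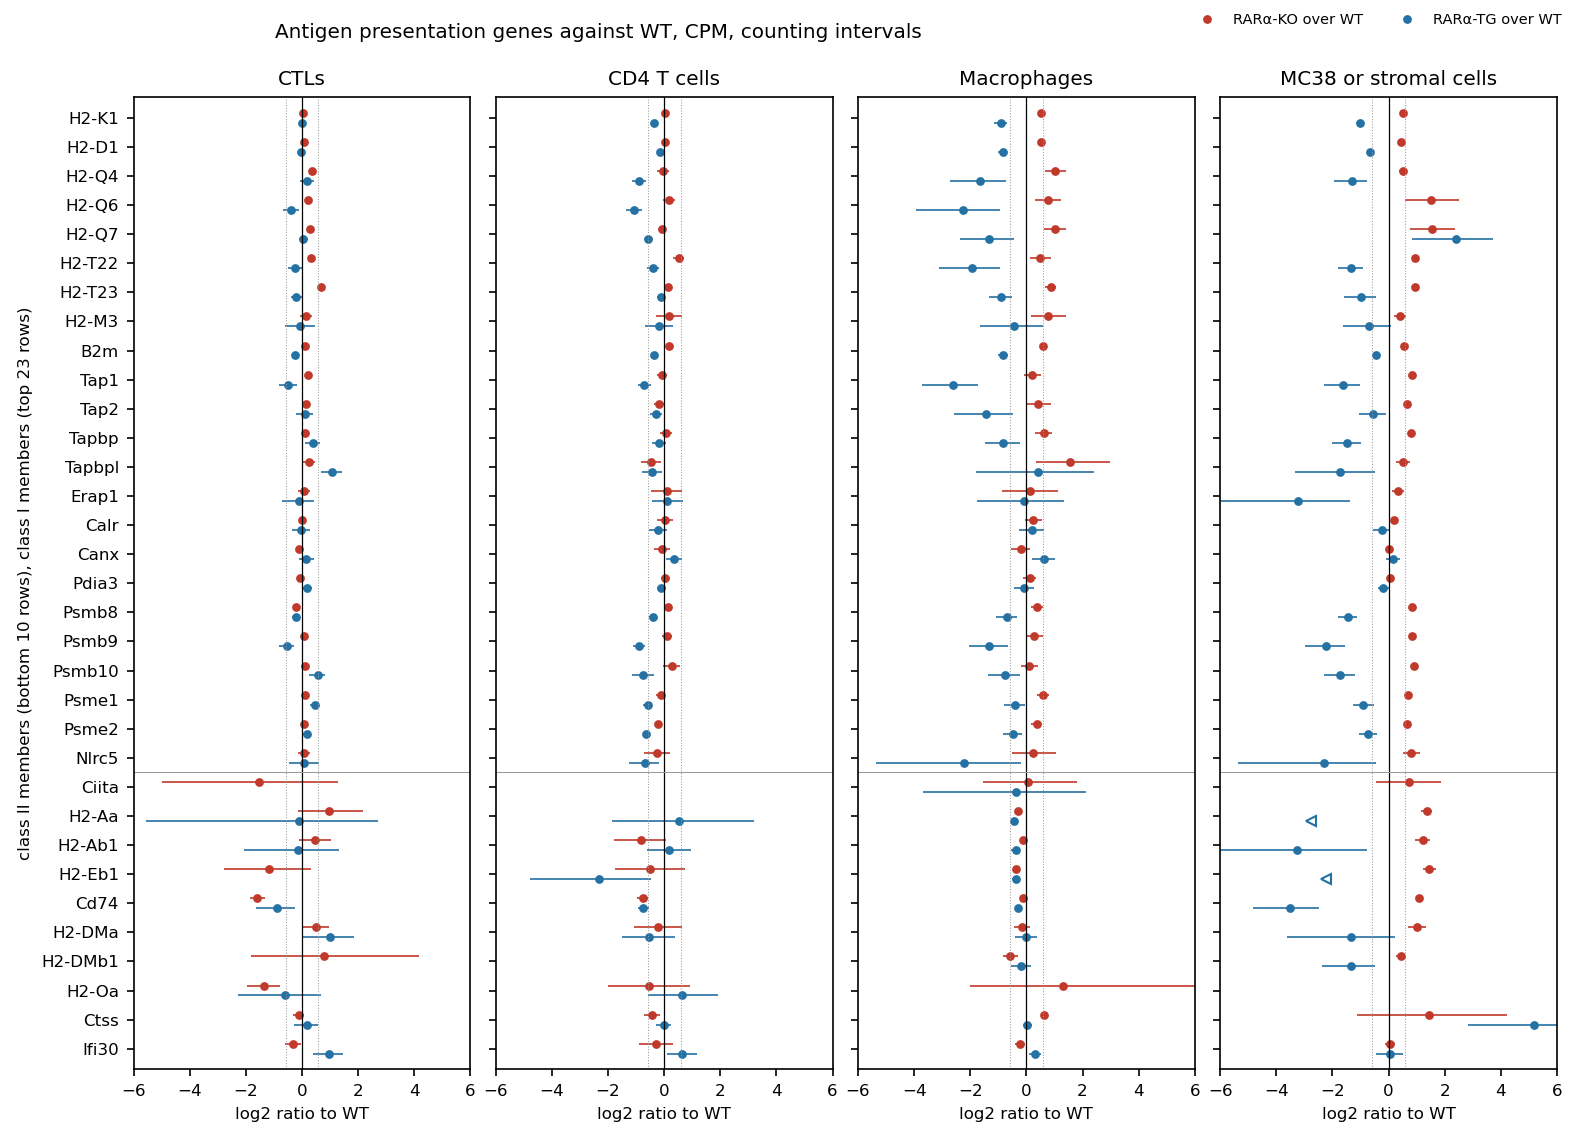
Log2 ratio to WT (x axis) of each class I and class II gene (y axis) in CTLs, CD4 T cells, macrophages and MC38 or stromal cells, with exact 95% binomial intervals cut at the axis limits, and dotted lines at 1.5-fold. Open triangles are bounds for genes at 0 UMIs, and genes with 3 or fewer UMIs in both genotypes have no point. RARα-KO and RARα-TG points part to either side of 0 in most class I rows in macrophages and MC38 or stromal cells, and lie near 0 in CTLs taken over all clusters.

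Class II transcripts in MC38 or stromal cells were scarce, and they showed the same order. The 10 genes summed to 499 CPM for WT (484 to 514), 955 for RARα-KO (926 to 984) and 167 for RARα-TG (129 to 212). The log2 ratio was 0.94 for RARα-KO (0.88 to 1.0) and −1.58 for RARα-TG (−1.95 to −1.23), the latter −0.61 with cells thinned to 1000 UMIs. Past 1.5-fold were 5 of 7 tested genes in RARα-KO, all higher, and 7 of 8 in RARα-TG, 6 of them lower. In the RARα-TG comparison the higher gene, Ctss, met the minimum only in RARα-TG, and H2-Aa, H2-Ab1 and H2-Eb1 only in WT. Over all genes 6.37% were higher and 3.58% lower in RARα-KO, and 15.1% higher and 19.6% lower in RARα-TG. Of 15 other class II pathway genes 8 passed the minimum, of which 1 (Rfx5, a transcription factor of class II promoters) was higher in RARα-KO and 0 were past 1.5-fold in RARα-TG. With only cells in which 90% or more of hashtag UMIs were of 1 hashtag, which left 15 WT, 99 RARα-KO and 3 RARα-TG cells, the class II sum in RARα-KO turned to a log2 ratio of −0.57.

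The chain genes themselves were at 0 or 1 UMI in RARα-TG. H2-Aa, the α chain of I-A (ENSMUSG00000036594, chromosome 17, 34282744 to 34287823), had 450 UMIs for WT, 564 for RARα-KO and 0 for RARα-TG. It was at 51.6 and 131.8 CPM in the first pair, a log2 ratio of 1.35 (1.17 to 1.54), and at least 6.81-fold lower in RARα-TG than in WT if its 0 is set to 3 UMIs. H2-Eb1, the β chain of I-E, had 311, 419 and 0 UMIs, with a log2 ratio of 1.46 in RARα-KO. H2-Ab1, the β chain of I-A, had 212, 242 and 1 UMIs, with a log2 ratio of 1.22 in RARα-KO. Cd74 was at 200.8, 431.0 and 17.7 CPM, with log2 ratios of 1.10 (1.01 to 1.20) and −3.51 (−4.82 to −2.46).

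The peptide exchange genes gave the same order with wider intervals. H2-DMa, part of the molecule that trades Cd74 remnants for peptides, was at 19.1, 38.6 and 7.57 CPM, and its partner H2-DMb1 at 70.7, 96.5 and 27.8. Ifi30, a lysosomal thiol reductase, did not differ by more than counting error, at 94.1, 97.5 and 98.5. Ciita, the transactivator of class II genes, had 16, 13 and 0 UMIs, and H2-Oa 1, 3 and 0. Ctss, a protease of antigen presenting cells that trims Cd74, had 3 UMIs for WT, 4 for RARα-KO and 5 for RARα-TG, the last a log2 ratio of 5.20 (2.84 to 7.89). This RARα-TG value stands beside the T cell markers given above, and their part in it was not tested.

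The class II chain UMIs of MC38 or stromal cells came with few UMIs of Ctss. In macrophages 54.2 to 104 UMIs of Ctss were found per 100 UMIs of H2-Aa, in dendritic cells 10.9 to 28.7, and in barcodes with under 100 UMIs, which hold free RNA, 89.3, whereas MC38 or stromal cells had 0.67 in WT and 0.71 in RARα-KO. Lyz2 was found in 1.05% of WT and in 0 of 133 RARα-KO cells, which allows a share of cells with a UMI of up to 2.26%. In the barcodes with under 100 UMIs, H2-Aa itself was at 193.7 CPM. The part of free RNA or of RNA from other cells in the chain values was not tested. A UMI of H2-Aa, H2-Ab1 or H2-Eb1 was found in 28.1% (22.9 to 33.7) of the WT cells, 40.6% (32.2 to 49.5) of the RARα-KO cells and 4.17% (0.11 to 21.1) of the RARα-TG cells. Median depth was 28932, 30142 and 16196 UMIs, and with cells thinned to 1000 UMIs the shares were 6.34%, 16.0% and 0 of 23 cells, which allows up to 13.04% of cells with a UMI. The transcripts were concentrated in few cells, since the 5 highest cells held 37.3% of Cd74 UMIs in WT and 39.6% in RARα-KO.

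Cells with class II chain UMIs also had more class I. At 1000 UMIs per cell, the median was 16 class I UMIs in 80 WT cells with a chain UMI and 10 in 204 without, and 19.5 in 54 and 14 in 77 RARα-KO cells. Within each of these groups the RARα-KO median was above that of WT. Depth differed little between the groups, with medians of 31291 and 27640 UMIs in WT and 31415 and 29612 in RARα-KO.

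The hashtag antibodies bind CD45 and MHC class I, and tumor cells lack CD45, so whether an MC38 cell was assigned to a genotype can depend on its class I protein. No hashtag was called on 144 of 586 MC38 or stromal cells, 24.6% (21.1 to 28.3), against 5.53% of macrophages and 1.29% of CTLs. Those 144, named here as without a hashtag, still had hashtag UMIs, the leading one at a median of 2.38 times its background. The cells without a hashtag had 6875 class I CPM, a log2 ratio of −0.81 to WT (−0.83 to −0.78) and −0.08 to RARα-TG (−0.14 to −0.02). Their summed class II level was 157 CPM, beside 167 in RARα-TG. Of these 144 cells 58 were in the small cluster, and in the main cluster alone their class I level was 7127, beside 7331 in RARα-TG.

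Hashtag depth differed between genotypes. In MC38 or stromal cells the median of the assigned hashtag was 22 times its background in WT, 13.1 times in RARα-KO and 6.64 times in RARα-TG. Across WT cells, the assigned hashtag UMIs and class I CPM had a Spearman correlation of 0.45 (285 cells of 1 sample, which share a library and differ in depth), and −0.06 across 133 RARα-KO and −0.03 across 24 RARα-TG cells. In dendritic cells this correlation was 0.42, 0.57 and 0.54 (WT, RARα-KO, RARα-TG), and in CD4 T cells 0.30, 0.26 and 0.40. In macrophages it was 0.14, 0.05 and 0.19, and in CTLs −0.10, −0.13 and 0.09. When each cell without a hashtag was given to its leading hashtag over background, 350 WT, 154 RARα-KO and 82 RARα-TG cells were compared, and the summed class I log2 ratio was 0.53 for RARα-KO and −0.98 for RARα-TG. The part of hashtag assignment in the RARα-TG values was not tested beyond this.

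**Figure D3:**
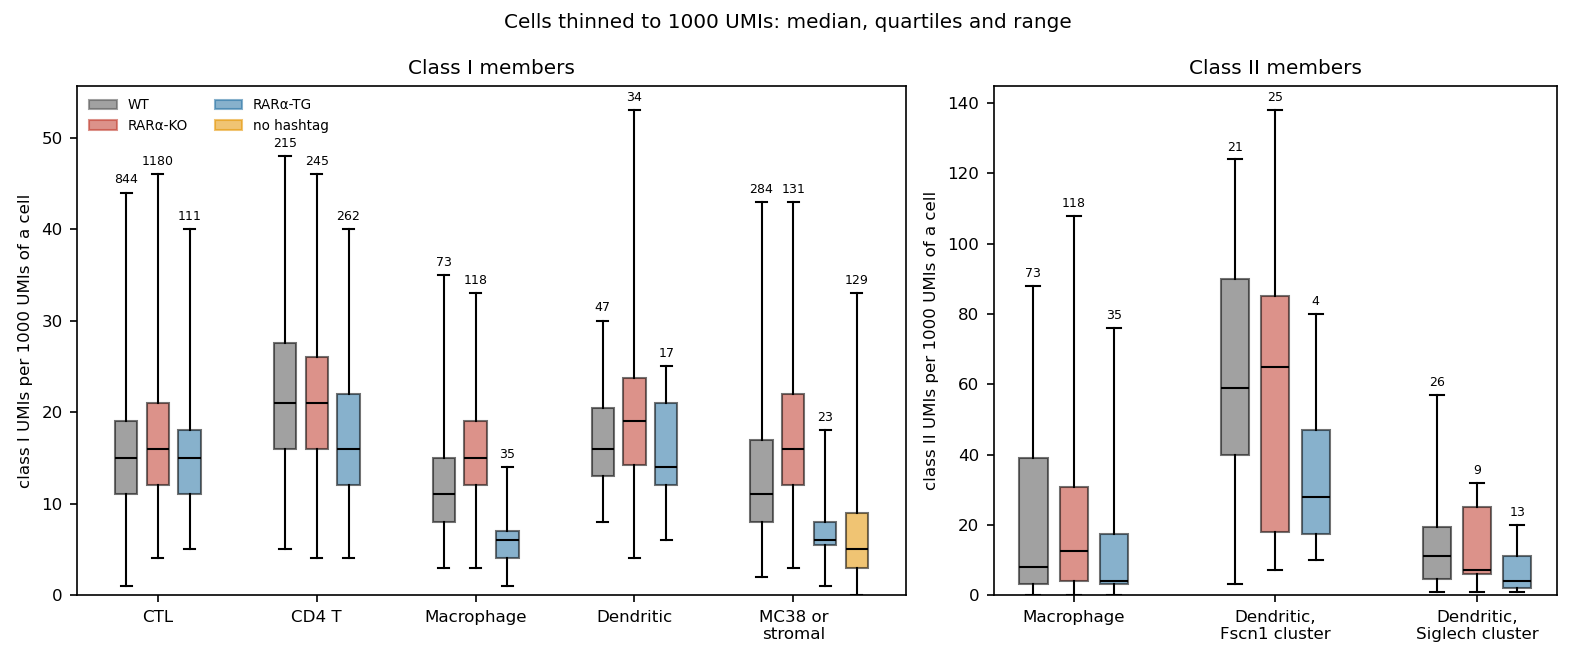
Class I UMIs (left) and class II UMIs (right) per cell after thinning each cell to 1000 UMIs, by cell type and genotype, with box for quartiles, line for median, whiskers for the whole range and the number of cells above. The class I box of RARα-TG macrophages (median 6) lies below those of WT (11) and RARα-KO (15), and MC38 or stromal cells show 6, 11 and 16, with 5 in cells without a hashtag.

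Macrophages showed the class I order seen in MC38 or stromal cells, while their summed class II genes did not follow that order. Summed class I was 11644 CPM for WT, 16629 for RARα-KO and 6907 for RARα-TG, with log2 ratios of 0.51 (0.47 to 0.56) and −0.75 (−0.83 to −0.68). Per 1000 UMIs of a cell the medians were 11, 15 and 6, and the upper quartile in RARα-TG, 7, was below the lower quartile in WT, 8. Past 1.5-fold in RARα-KO were 8 of 23 class I genes, all higher, where 15.0% of all genes were higher and 15.1% lower. In RARα-TG 15 of 23 were lower and 1 higher, where 22.5% of all genes were lower and 21.6% higher. T cell markers summed to 187, 776 and 163 CPM in the macrophages (same order), and in cells without T cell receptor or CD3 UMIs the summed log2 ratios were 0.55 and −0.73.

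The heavy chains and the light chain in macrophages were ordered RARα-KO, WT, RARα-TG. H2-K1 was at 1611, 2299 and 853 CPM, with log2 ratios of 0.51 and −0.92, and B2m at 2484, 3766 and 1406, with 0.60 (0.51 to 0.69) and −0.82 (−0.99 to −0.65). H2-T23 was at 475.6, 865.1 and 251.9, with 0.86 and −0.92. H2-Q4 was at 140.6, 288.4 and 44.7, with 1.04 (0.67 to 1.41) and −1.65 (−2.71 to −0.74).

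The loading genes differed more in RARα-TG than in RARα-KO macrophages. Tap1 was at 251.7 CPM for WT, 291.6 for RARα-KO and 40.6 for RARα-TG, with log2 ratios of 0.21 (−0.08 to 0.51) and −2.63 (−3.72 to −1.71). Psmb9 was at 223.9, 272.1 and 89.4, with 0.28 and −1.32, and Psmb8 and Psmb10 were at 0.38 and 0.10 in RARα-KO and −0.71 and −0.77 in RARα-TG. Unlike in MC38 or stromal cells, no immunoproteasome subunit passed 1.5-fold in RARα-KO. Tapbpl, a tapasin relative that edits peptides, had 7, 33 and 4 UMIs, with a RARα-KO log2 ratio of 1.56 (0.36 to 2.98), and Canx was the class I gene higher by 1.5-fold in RARα-TG, at 0.61.

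Of the upstream factors in macrophages, Irf1 had 337, 656 and 7 UMIs, or 584.9, 711.1 and 28.4 CPM, a RARα-TG log2 ratio of −4.36 (−5.69 to −3.30). It was thus far below WT in RARα-TG. Nlrc5 had 22, 42 and 2 UMIs. Of the other class I pathway genes 2 of 12 were past 1.5-fold in RARα-KO, both higher, where 15.0% of all genes were higher and 15.1% lower. Both met the minimum of 0.1 UMIs per cell only in RARα-KO, so the filter itself favoured a higher value for them. In RARα-TG 3 of 10 were higher, the constitutive proteasome gene Psmb5 at 0.79 among them, and 3 were lower, Irf1 and Irf2 among them. Over all genes in RARα-TG 21.6% were higher and 22.5% lower.

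Summed class II in macrophages was 24581 CPM for WT, 22963 for RARα-KO and 20361 for RARα-TG, with log2 ratios of −0.10 (−0.13 to −0.07) and −0.27 (−0.32 to −0.23). No class II gene was lower by 1.5-fold in either comparison. H2-Aa was at 3822, 3080 and 2848 CPM, and Cd74 at 12166, 11254 and 9813. Ctss was the gene past 1.5-fold in RARα-KO, at 2072, 3204 and 2129, a log2 ratio of 0.63 (0.53 to 0.73). Of the other class II pathway genes, 4 of 10 tested were higher by 1.5-fold in RARα-KO macrophages and 1 was lower. Over all genes 15.0% were higher and 15.1% lower. The lysosomal proteases Ctsb, Ctsd and Ctsl were at 0.80, 0.87 and 1.30 there, Ctsh at 0.32 and Lgmn at −0.23. In RARα-TG 3 of 11 were lower and 1 higher, where 22.5% of all genes were lower and 21.6% higher. The higher gene met the minimum only in RARα-TG. Of genes that costimulate T cells, Cd40 and Cd86 were at −1.53 and −1.03 in RARα-TG. Cd80 was at −0.88 in RARα-KO and 0.37 in RARα-TG.

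Class II was spread unevenly over macrophages. A chain UMI was found in 64.9% (53.2 to 75.5), 76.4% (68.0 to 83.5) and 40.0% (23.9 to 57.9) of macrophages, in the order used above, at median depths of 6712, 6427 and 6630 UMIs. Thinned to 1000 UMIs, the shares were 53.4%, 61.0% and 31.4%. CTLs, which should lack the chains, had such a UMI in 4.43% to 5.93% of cells. Per 1000 UMIs of a macrophage, the class II medians were 8, 12.5 and 4, with quartiles of 3 to 39, 4 to 30.75 and 3 to 17.5. The macrophage shares and medians were thus ordered RARα-KO, WT, RARα-TG, unlike the sums. The 5 highest cells held 35.4% of Cd74 UMIs for WT, 20.04% for RARα-KO and 78.3% for RARα-TG, so the RARα-TG sum came mostly from 5 of 35 cells. Macrophage markers summed to 18475, 11472 and 21738 CPM, so the cells compared differed in more than these genes.

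The small neutrophil cluster of 10, 37 and 10 cells had summed class I at 5597, 12778 and 3933 CPM, from 111, 982 and 68 UMIs.

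Dendritic cells fell into clusters that the genotypes filled unequally, so the clusters are given apart. The cluster led by Fscn1, a gene of mature dendritic cells, had 21 WT, 26 RARα-KO and 4 RARα-TG cells, and the cluster led by Siglech, a gene of plasmacytoid dendritic cells, had 27, 9 and 13. Summed class II in WT was 61874 CPM in the Fscn1 cluster and 14451 in the Siglech cluster. Over both clusters the class II log2 ratio was 0.39 in RARα-KO and −1.22 in RARα-TG, but within the Fscn1 cluster it was 0.05 (0.01 to 0.08) and −0.59 (−0.67 to −0.51), and within the Siglech cluster −0.15 (−0.26 to −0.04) and −0.80 (−0.92 to −0.68). The RARα-KO ratio was thus smaller within the Fscn1 cluster than over both, and below 0 within the other. Over all genes of the pooled dendritic cells 15.6% were higher and 30.8% lower in RARα-KO, and 25.3% higher and 20.9% lower in RARα-TG, so single folds from these cells are weakly determined.

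Over both clusters 6 of 10 class II genes were lower by 1.5-fold in RARα-TG and 0 were higher, and within the Siglech cluster 7 were lower, where 26.6% of all genes tested in that cluster were lower and 18.2% higher. H2-Aa had a log2 ratio of −1.18, H2-Eb1 −1.31, H2-Ab1 −0.71, Cd74 −0.82 and H2-DMa −1.03. In the Fscn1 cluster H2-Aa was at −0.72 and H2-Eb1 at −0.97, from 4 cells. Summed class I in the Fscn1 cluster was 17754, 21818 and 12281 CPM, with log2 ratios of 0.30 (0.24 to 0.36) and −0.53 (−0.68 to −0.39), and Tap1 and Psmb9 were at −1.84 and −1.74 in RARα-TG. Dendritic markers in this cluster summed to 29481, 35327 and 9063 CPM, most of it Cst3 in WT and RARα-KO, with 13, 13 and 9 of 14 detected, and Fscn1 itself was at 2276, 2739 and 2244. Xcr1, Clec9a, Itgax and Naaa were at 0 UMIs in the 4 RARα-TG cells and not in the others, and the part of this in the class I and class II values was not tested. In the Siglech cluster summed class I was 16819, 16750 and 15533, with −0.01 and −0.11, and the RARα-KO value did not differ from WT beyond counting error.

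Over all CTLs, in which Rara itself was changed, summed class I was close to WT in both genotypes, but RARα-TG CTLs were lower than WT within the clusters that could be compared. Summed class I was 14323 CPM for WT, 15345 for RARα-KO and 13995 for RARα-TG, with log2 ratios of 0.10 (0.09 to 0.11) and −0.03 (−0.07 to −0.00). H2-K1 was at 3066, 3120 and 3076, and Nlrc5 at 54.8, 57.2 and 58.1, with every interval of the Nlrc5 ratios including 0. In RARα-KO 1 of 23 class I genes was past 1.5-fold, where 4.14% of all genes were higher and 2.91% lower. In RARα-TG 1 was higher, where 12.6% of all genes were higher and 14.0% lower. That gene was Tapbpl, at 55, 64.9 and 114.5 CPM, a log2 ratio of 1.06 (0.66 to 1.44).

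The genotypes filled the CTL clusters unequally. The cluster led by Ifit3 and Gzmk (cluster 2) held 61.1% of RARα-TG and 9.70% of WT CTLs, and the cluster led by Klra7 (cluster 8) 24.8% and 6.15%. Cluster 2 had high class I in WT, at 19782 CPM, beside 13487 in cluster 8. Within cluster 2 the summed class I log2 ratio in RARα-TG was −0.32 (−0.37 to −0.26, 69 against 82 cells), and within cluster 8 −0.23 (−0.31 to −0.15, 28 against 52 cells). H2-K1 was at 3637 against 4517 CPM in cluster 2 and 2242 against 3096 in cluster 8, with log2 ratios of −0.31 (−0.43 to −0.20) and −0.47 (−0.64 to −0.30). Tap1 was at −0.92 (−1.43 to −0.44) in cluster 2. The leading genes of cluster 2 also included Tcf7. With the listed genes kept in the clustering, the T cell cluster led by Ifit3 held 54 WT and 23 RARα-TG cells. One led by Ramp3 and Tcf7 then held 115 and 142. Whether the genotypes differed in make-up inside cluster 2, and the part of this in its ratios, was not tested. In RARα-KO, summed class I within the 6 clusters that could be compared lay between −0.05 and 0.17.

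The gene past 1.5-fold in RARα-KO CTLs was H2-T23 (ENSMUSG00000067212, chromosome 17, 36029977 to 36032701), at 409.6 CPM for WT, 661.9 for RARα-KO and 356.8 for RARα-TG. Its log2 ratio in RARα-KO was 0.69 (0.62 to 0.76). Of the clusters with many CTLs, the one led by Gzmf and Gzmd held 41.3% of WT and 9.14% of RARα-KO CTLs, and the one led by Serpine2, Prf1 and Ccl5 held 3.31% and 45.0%. Within the 6 clusters that had 20 or more CTLs of both genotypes, the log2 ratio lay between 0.25 and 0.45, above 0 with its interval in each and below 1.5-fold in each. The pooled ratio was thus larger than the ratio within any of these clusters.

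**Figure D4:**
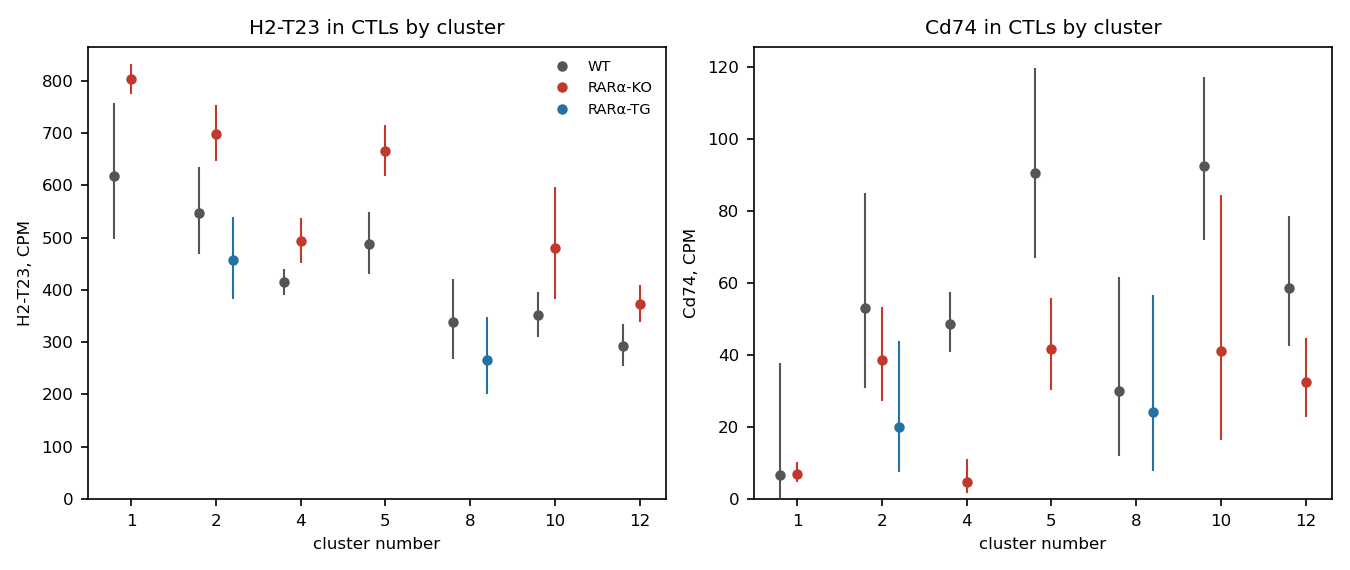
CPM of H2-T23 (left) and Cd74 (right) in CTLs of each cluster (x axis, cluster number) and genotype, with exact 95% Poisson intervals, for clusters with 20 or more CTLs of the genotype. H2-T23 in RARα-KO lies above WT in each of the 6 clusters with both points, and Cd74 is furthest apart in cluster 4.

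Class II chain transcripts were found in few CTLs of any genotype, and Cd74 in more of the WT cells. A UMI of H2-Aa, H2-Ab1 or H2-Eb1 was found in 5.21%, 5.93% and 4.43% of CTLs (WT, RARα-KO, RARα-TG), and Lyz2, a macrophage gene, in 0.83%, 1.10% and 0.88%. Cd74 was found in 16.6% (14.1 to 19.2), 5.84% (4.57 to 7.34) and 7.96% (3.71 to 14.6), at median depths of 5664, 5576 and 4680 UMIs. Thinned to 1000 UMIs, its shares were 5.92%, 2.03% and 0.90%. Its level was 62.1, 20.7 and 33.2 CPM, with log2 ratios of −1.59 (−1.86 to −1.32) and −0.90 (−1.63 to −0.26). Dendritic markers summed to 543, 328 and 347 CPM in CTLs, mostly from Ccr7 and Cst3, with Clec9a, Cd209a and Siglech at 0 UMIs, and their part in the Cd74 values was not tested.

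Cd74 was also lower in RARα-KO within 4 of the 6 clusters that could be compared. The log2 ratio was −3.33 (−4.98 to −2.08) in the cluster led by Gzmf and Gzmd (cluster 4), −1.12 in cluster 5, −1.17 in cluster 10 and −0.85 in cluster 12, while the intervals in clusters 1 and 2 included 0. Cluster 1, with 45.0% of RARα-KO and 3.31% of WT CTLs, had Cd74 at 7.09 CPM in RARα-KO. In WT it was at 6.78 there, from 1 UMI. Outside cluster 4, each ratio within a cluster was smaller in size than the ratio over all CTLs. H2-Oa, a brake on peptide exchange, had 71, 40 and 5 UMIs, with a RARα-KO log2 ratio of −1.36 (−1.96 to −0.78). With T cells taken by clonotype in place of cluster, Cd74 in RARα-KO CTLs had a log2 ratio of 1.21, and the 993 RARα-KO cells so chosen included 10 from the macrophage cluster. In RARα-TG CTLs Ifi30 and H2-DMa were higher, at 0.95 and 0.99, from 38 and 13 UMIs.

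CD4 T cells had lower class I in RARα-TG than in WT, over all cells and within each cluster that could be compared. Summed class I was 20189 CPM for WT, 20791 for RARα-KO and 15972 for RARα-TG, with log2 ratios of 0.04 (0.02 to 0.07) and −0.34 (−0.37 to −0.31). In RARα-KO 0 of 23 genes were past 1.5-fold, where 5.90% of all genes were higher and 9.05% lower. In RARα-TG 8 of 23 were lower and 0 higher, where 8.02% of all genes were lower and 7.55% higher. The median over the 23 genes was −0.39, beside −0.00 over all genes.

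CD4 T cells of the genotypes also lay in different clusters. A cluster led by Laptm4b and Pcsk1 held 48.5% of the RARα-TG cells (127), 3.23% of WT (7) and 0.81% of RARα-KO (2), so it could not be compared. The cluster led by Lrrc32 and Foxp3, the latter the transcription factor of regulatory T cells, held 59.4%, 34.1% and 16.8% of the cells (WT, RARα-KO, RARα-TG). Within it the summed class I log2 ratio was 0.17 (0.13 to 0.21) for RARα-KO and −0.14 (−0.19 to −0.08) for RARα-TG. Within the cluster led by Tnfsf11 and Tnfsf8 it was 0.14 (0.09 to 0.19) and −0.56 (−0.63 to −0.49), and within the cluster led by Ramp3 and S1pr1, of 21, 26 and 31 cells, 0.08 (−0.03 to 0.19) and −0.16 (−0.27 to −0.05). RARα-KO CD4 T cells were thus above WT beyond counting error in 2 of these clusters.

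The 8 genes were H2-Q4 and H2-Q6, Tap1, the immunoproteasome genes Psmb9, Psmb10, Psme1 and Psme2, and Nlrc5. Tap1 was at 390.1 CPM for WT, 369.4 for RARα-KO and 239.7 for RARα-TG, a RARα-TG log2 ratio of −0.70 (−0.93 to −0.48). Psmb9 was at 420.9, 453.0 and 227.3, with −0.89 (−1.11 to −0.67). H2-K1, at 4837, 4967 and 3739, had a ratio of −0.37 and was not past 1.5-fold. Nlrc5 had 74, 81 and 53 UMIs and a log2 ratio of −0.70 (−1.24 to −0.17), which turned to 0.09 with cells thinned to 1000 UMIs. Of 12 other class I pathway genes tested there 2 were past 1.5-fold, both lower, where 8.02% of all genes were lower and 7.55% higher. Irf1 was at −0.73.

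Cd74 in CD4 T cells was at 507 CPM for WT, 298 for RARα-KO and 304 for RARα-TG, with log2 ratios of −0.77 (−0.96 to −0.58) and −0.74 (−0.93 to −0.54). It was found in 45.2%, 31.7% and 44.3% of cells at median depths of 3918, 4704 and 3977 UMIs, and, thinned to 1000 UMIs, in 28.4% (22.5 to 34.9), 15.5% (11.2 to 20.7) and 21.4% (16.6 to 26.8). Within the cluster led by Lrrc32 and Foxp3 the Cd74 log2 ratio was −0.15 (−0.36 to 0.06) for RARα-KO and −0.59 (−0.93 to −0.25) for RARα-TG, and within the cluster led by Tnfsf11 and Tnfsf8 −1.21 and −2.13. B cell markers summed to 177, 96.8 and 88.4 CPM in these cells and dendritic markers to 781, 454 and 777, the latter mostly from Ccr7 and Cst3, with Flt3, Clec9a, Cd209a and Siglech at 0 UMIs. The part of either in the Cd74 values was not tested. The chains H2-Aa, H2-Ab1 and H2-Eb1 had at most 34 UMIs in any genotype.

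Across cell types in WT, summed class I was highest in CD4 T cells (20189 CPM), followed by dendritic cells (17337), CTLs (14323), MC38 or stromal cells (12035) and macrophages (11644), and the counting intervals of neighbours in this order did not overlap. In RARα-KO, MC38 or stromal cells (17413) and macrophages (16629) were above CTLs (15345), and in RARα-TG both (7254 and 6907) were below CTLs (13995). These differences between genotypes in the size of the ratio were not tested, since each genotype was 1 sample.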

How the data were processed

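Cells of MC38 tumors from 3 genotypes were sequenced as 1 pooled 5′ single-cell library with hashtags and T cell receptors. The deposited matrix holds UMI counts per gene and barcode, which the authors made with Cell Ranger (6.1.0 per the labels, on mm10, GRCm38; the matrix header names another version), without normalization. The deposited clonotype tables and hashtag counts were used as given. The matrix holds all 730308 barcodes, so 5585 cells were called again, by UMI total and then against the profile of empty barcodes. Hashtags were called with HTODemux (Seurat 5.3.0, quantile 0.99), and cells with several hashtags (426) were removed. Doublets within a genotype cannot be seen this way and were estimated at 5.05% of singlets. Cells were clustered without the listed genes (scanpy 1.11.5, 2000 variable genes, 30 components, Leiden resolution 1), and clusters were named from marker lists. A cluster with a clonotype in over 50% of cells was called T cells. CTLs had a Cd8a UMI and none of Cd4, and CD4 T cells had a Cd4 UMI and none of Cd8a or Cd8b1.

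UMIs were summed per genotype and cell type and divided by all gene UMIs (CPM). Sums have exact Poisson intervals, shares Clopper-Pearson and ratios exact binomial intervals, at 95%. A gene at 0 was set to 3 UMIs. Counts past 1.5-fold cover genes with 0.1 UMIs per cell or more in either genotype compared, so a gene can enter through the genotype in which it is higher. All 33 members were computed. The rule named Nlrc5, Ciita, the H2-K1, H2-D1, H2-Q, H2-T and H2-M genes, and in each cell type members, and genes of the wider pathway lists, past 1.5-fold with a ratio interval off 0. Other genes given with values (B2m, the chaperones, Psmb5 to Psmb7, and members below 1.5-fold in a cell type) were chosen after their values were seen. The members and lists were chosen with earlier results of these data known. Gene coordinates are from RefSeq (GRCm38.p6), which matched all 33. Promoter motifs were not analysed here. A gene of the wider lists is counted but not reported here. The scripts were tested on simulated data. The labels name spleen and cultured CD8 T cells in places, and the tumor protocol was followed. Alternatives tried were thinning cells, another denominator, clustering with the listed genes, T cells by clonotype, other hashtag rules, other filters and folds, and, chosen after seeing the data, leading hashtags, cells without T cell transcripts and single clusters.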

Additional observations from a re-analysis of the deposited data

Results flagged for a closer look

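The summed class II genes moved in different directions in RARα-KO than in WT between cell types. The log2 ratio was 0.94 in MC38 or stromal cells and 0.39 in dendritic cells, and −0.44 in CTLs, −0.63 in CD4 T cells and −0.098 in macrophages. The genes in the CTL sum did not all move alike. From 845 WT and 1181 RARα-KO CTLs, Cd74 had 349 and 168 UMIs and H2-Eb1 11 and 7. H2-Aa had 10 and 28, and H2-Ab1 41 and 82. The difference between cell types was not tested, since each genotype was 1 sample. Within each dendritic cluster the ratio was 0.05 or −0.15.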

How the results depend on the processing

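No paired analysis was possible because each genotype was 1 sample. Log2 ratios to WT are given for RARα-KO, then RARα-TG where both moved by more than the counting interval. Of 144 alternative values of the summed classes, 82 stayed within the interval and 62 moved beyond it, and 17 had another sign than the value reported. The counts of genes past the fold also depended on the settings. At 2-fold in place of 1.5-fold, 16 of these counts moved and 24 stayed the same. With the minimum required in both genotypes 5 moved and 35 stayed, and with no minimum 6 moved and 34 stayed. With cells thinned to 1000 UMIs, summed class I was −0.014 in CD4 T cells (RARα-KO), 0.39 and −1.0 in macrophages, 0.35 and −0.11 in dendritic cells and 0.50 in MC38 or stromal cells (RARα-KO), summed class II was 0.029 and −0.54 in macrophages, −0.36 in CTLs (RARα-TG), −1.32 in dendritic cells (RARα-TG), and 1.06 and −0.61 in MC38 or stromal cells. Thinning turned Nlrc5 in RARα-TG CD4 T cells to 0.087 and Tapbpl in RARα-TG MC38 or stromal cells to 1.82. Thinned shares with a class II chain UMI were 1.18% and 1.10% in WT and RARα-KO CTLs, and 2.79%, 2.86% and 2.67% in CD4 T cells of the 3 genotypes. A denominator without mitochondrial, ribosomal and receptor genes gave class I 0.050 and 0.00025 in CTLs and −0.68 in RARα-TG macrophages, and class II −0.14 and −0.19 in macrophages. Clustering with the listed genes gave class II −1.0 in RARα-TG dendritic cells.

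T cells chosen by clonotype gave class I 0.12 and 0.00026 in CTLs and 0.091 in RARα-KO CD4 T cells, and class II 1.02 in RARα-KO CTLs (Cd74 1.21) and −1.51 and −1.35 in CD4 T cells. A hashtag share of 90% or more kept 17 CTLs, 16 CD4 T cells, 1 macrophage, 1 dendritic cell and 15 MC38 or stromal cells of WT, and 3 RARα-TG MC38 or stromal cells. With it class I was 0.14 and 0.068 in CTLs, −0.14 and −0.40 in CD4 T cells, 3.53 and 2.46 in macrophages, 0.93 and 0.98 in dendritic cells and 0.23 and −1.04 in MC38 or stromal cells. Class II was −1.01 and −0.61 in CTLs, −1.12 and −0.72 in CD4 T cells, −0.0055 and 0.46 in macrophages, −0.54 and −4.04 in dendritic cells, and −0.57 and −3.33 in MC38 or stromal cells. There H2-Aa, H2-Ab1, H2-Eb1 and Cd74 in RARα-KO MC38 or stromal cells were −0.69, −0.83, −0.46 and −0.68. In RARα-TG, H2-DMa in CTLs was −0.52, Nlrc5 in CD4 T cells 0.15, and Tapbp and Psmb9 in dendritic cells 1.30 and 0.30. The cause was not tested beyond the loss of WT cells.

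Leading hashtags gave class I −0.98 in RARα-TG MC38 or stromal cells and class II −0.33 in RARα-TG macrophages. Without cells holding T cell receptor or CD3 UMIs, class I was 0.56 and −0.82 in MC38 or stromal cells, and class II −0.011 in RARα-KO macrophages and 0.46 and −1.12 in dendritic cells. The Fscn1 cluster alone gave class I −0.53 (RARα-TG) and class II 0.047 and −0.59, the Siglech cluster class I −0.0059 and −0.11 and class II −0.15 and −0.80, and the small cluster of MC38 or stromal cells (12 WT, 3 RARα-KO and 4 RARα-TG cells) class I 0.68 and −1.57 and class II −3.95 and −0.38. Cell number limits the RARα-TG values outside T cells, which rest on 24 MC38 or stromal cells, 35 macrophages and 17 dendritic cells.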
